A study of Mus musculus with 24 samples.

Results

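AI314278 and Gm853 are 2 of the 102 transcripts that the study listed as kidney-specific lncRNAs (long noncoding RNAs), and each is read by 1 of the 60804 transcript probes of an Arraystar mouse lncRNA microarray. They were taken by symbol from that list, which had been drawn up from these same arrays by setting the tissues against each other. That kidney is the high tissue was therefore fixed by the choice of transcripts, and the tissue values are given as a description with no test. The array files name probes without symbols, and every name here comes from the study's lists. Cy3-labelled RNA was measured on 24 arrays, with 3 arrays for each of 8 groups. The tissue groups were kidney, liver, heart, brain and testis, taken from male ICR mice 8 weeks old, and the other groups were the cell lines GC-1, GC-2 and F9. The mice were untreated as far as the labels say, and the design text calls the 3 arrays of a group biological replicates. F9 is a mouse embryonal carcinoma line, and GC-1 and GC-2 are immortalized mouse lines made from male germ cells. Each line is a single culture-adapted line, and none of them is derived from kidney. No female animals and no other ages were among the arrays.

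The kidney is built largely of epithelial tubules. The proximal tubule takes back sugars, amino acids and salts from the filtrate, the distal parts adjust salt and calcium, and the collecting duct adjusts water. Male and female mouse kidneys differ in the expression of many proximal tubule genes, a number of which respond to androgens. Gm853 is an older name of Ldc1, the gene of leucine decarboxylase, an enzyme related to ornithine decarboxylase, which starts polyamine synthesis. No function of AI314278 is described here.

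In the RefSeq annotation of mouse build GRCm38.p6, AI314278 is a lncRNA gene at chr7:89426306-89432077, 5772 bases long. Its nearest protein-coding neighbours are Fzd4, a Wnt receptor, 16195 bases to the left and Prss23, a serine protease, 75705 bases to the right. Gm853 is annotated as Ldc1, a protein-coding gene at chr4:130209023-130222428, on the minus strand and 13406 bases long. The study's list places the probe on the transcript ENSMUST00000124528 and counts that transcript as a lncRNA. Which exons the probe reads was not examined, so it is not settled here whether the Gm853 values are of that transcript, of the protein-coding Ldc1 mRNA or of both. Tinagl1, which encodes a secreted matrix protein, lies 33900 bases to the left and Serinc2, of a family of membrane proteins, lies 31066 bases to the right. No other annotated gene overlapped either locus. The 2 genes are on different chromosomes.

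The sequences below are shown because they tie the 2 names to a place in the transcriptome and the genome. The first pair are the study's qRT-PCR primers for AI314278 (transcript NR_102276), each 20 bases long. The third is the RefSeq promoter sequence of Ldc1, the 250 bases before the start that the promoter table uses, at chr4:130222296-130222545, minus strand, GRCm38.p6. That start lies 133 bases inside the gene as given above, so the last 133 of the 250 bases are within the annotated gene and the rest lie before it. Capitals in it mark the reverse complement of GTTAAT, letters found in HNF1 binding sites. HNF1 factors are regulators of tubule and liver genes.
AI314278 forward primer: ttctggggactgatacgggt
AI314278 reverse primer: tccaaaaggccacactctcc
Ldc1 promoter: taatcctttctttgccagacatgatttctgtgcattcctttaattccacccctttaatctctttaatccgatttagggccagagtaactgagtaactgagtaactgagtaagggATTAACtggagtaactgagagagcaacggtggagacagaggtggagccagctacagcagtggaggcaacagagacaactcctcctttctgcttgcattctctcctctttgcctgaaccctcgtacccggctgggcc
The marked letters begin 136 bases before the start of the promoter table. They run from 130222431 to 130222426 and so span the 5′ end of the annotated gene at 130222428. GTTAAT on either strand was present in 7.10% of the 32851 promoters of the same table, each read from 250 bases before to 50 after the start. The other motifs searched on both strands were TATAAA (the TATA box, in 13.6% of promoters), CAAAGTCCA (an HNF4 core, in 0.475%) and AGAACA (letters of androgen receptor sites, in 19.0%). None of these was in the Ldc1 window. The letters GAGTAACT, searched after the sequence had been seen, occurred 4 times in it. On either strand they were present at least once in 0.56% of promoters. At least as many matches were in 0.00304%, a share that includes Ldc1 itself. These matches describe letters and were not tested as sites.

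Levels are given as log2 of the processed signal minus the 75th percentile of all transcript probes on the same array, so that 0 is the 75th percentile. Gm853 stood at 7.21, 7.15 and 5.37 on kidney arrays 1, 2 and 3, a mean of 6.58 ± 1.05 (SD, n = 3). Its processed signals there were 14525, 11019 and 3217 intensity units. AI314278 stood at 5.18, 5.27 and 5.17, a mean of 5.21 ± 0.05 (SD, n = 3), with signals of 3566, 2986 and 2800. All 6 readings were flagged as well above background and none was saturated or marked as an outlier spot. The 3 AI314278 readings lay close together, and for Gm853 the third array lay apart from the first and second.

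**Figure D1:**
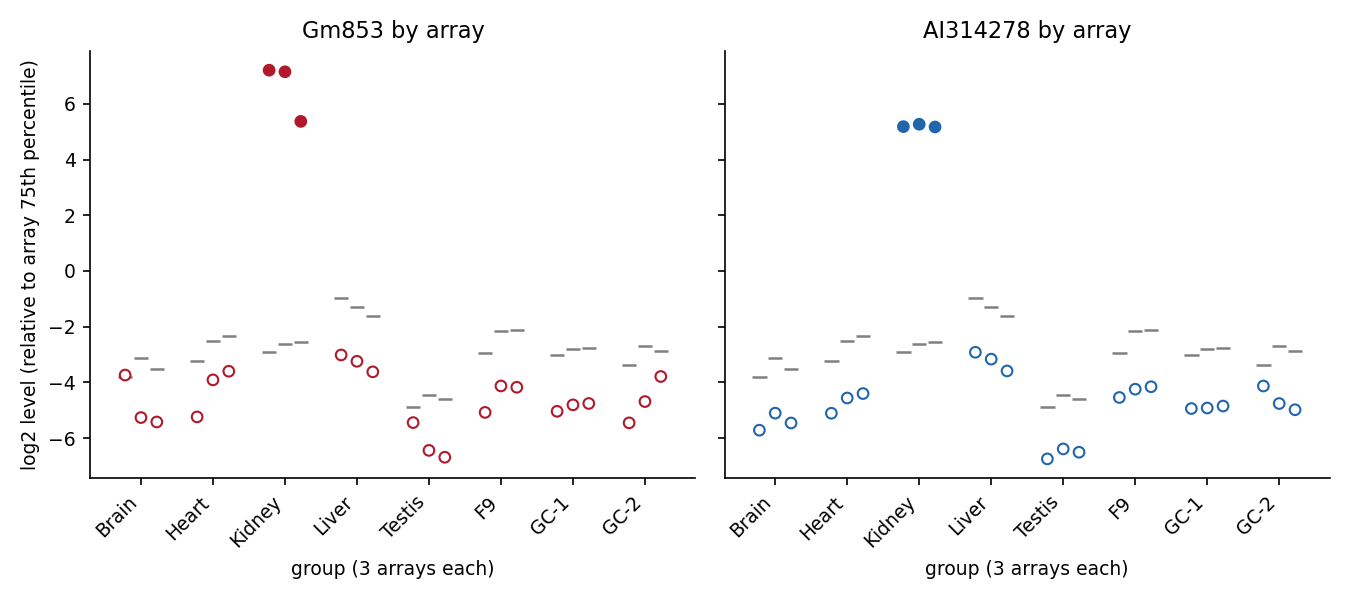
Log2 level of Gm853 (left) and AI314278 (right) on each of 24 arrays, relative to the 75th percentile of the array, in replicate order within a group. Filled circles are well above background, open circles are not, and grey bars mark the lowest level flagged well above background on that array. Only the 3 kidney points of each panel are filled.

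Outside kidney, neither transcript was well above background on any of 21 arrays. Signals of Gm853 on these arrays ran from 2.84 to 11.6 intensity units, and those of AI314278 from 2.93 to 8.34. A less strict flag, for a signal that is positive and significant, was set on 6 of the 21 arrays for Gm853 and on 2 for AI314278. For Gm853 these were 2 brain, 2 heart, 1 testis and 1 GC-2 array. For AI314278 they were 1 F9 and 1 GC-2 array. No group carried this flag on all 3 arrays for either transcript. All 3 kidney arrays lay above all 21 others for both, which held for 2.83% of all transcript probes, and the choice of the transcripts fixed this for the tissues.

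Because neither transcript was well above background in the other groups, the size of the difference has only a lower bound. It was computed as the kidney mean over the lowest signal flagged well above background on each other array, or over the probe's own reading where that was higher. For Gm853, kidney exceeded liver at least 233-fold. Liver had the highest detection limit on this scale. The bounds were at least 619-fold over heart, 1049-fold over brain and 2373-fold over testis. AI314278 was at least 90.2-fold higher in kidney than in liver, 240-fold higher than in heart, 412-fold higher than in brain and 918-fold higher than in testis. These bounds order the groups by their detection limits and by the array scaling, and they do not order the levels below the limit. Without kidney array 3 the bound of Gm853 over liver was 354-fold, against 91.4-fold for AI314278. All of these folds hold for this scaling only. On the log2 scale the bounds over liver were 7.87 for Gm853 and 6.49 for AI314278. Normexp background correction, which lifts dim signals, lowered them to 6.23 and 4.81. Without kidney array 1 the Gm853 bound was 7.55.

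The cell lines were not used in drawing up the list, but the kidney arrays were. For Gm853, kidney exceeded F9 at least 508-fold, GC-1 at least 696-fold and GC-2 at least 757-fold. For AI314278 the same bounds were 197-fold, 269-fold and 293-fold. With normexp the bounds over F9 were lower as well. They were 6.80 for Gm853 and 5.35 for AI314278 on the log2 scale, against 8.99 and 7.62. Between the lines themselves the comparison was independent of the list. In a limma fit of the 9 cell line arrays over all probes, 23.5% of probes differed between F9 and GC-1, 23.3% between F9 and GC-2 and 9.23% between GC-1 and GC-2 at an adjusted p of 0.05 or less. These shares came without a slide block, though each line had array 1 on slide 1 and arrays 2 and 3 on slide 3. With that block, 19110, 32485 and 8382 of 60804 probes differed, against 14259, 14156 and 5610. Of the 6 comparisons of the 2 transcripts, 0 passed in limma with or without the slide block. Without it, 1 had an unadjusted p under 0.05 (AI314278, F9 against GC-1, limma adjusted p = 0.149). Both transcripts were below the detection limit on all 9 arrays, so no fold is given and a difference below that limit was not detectable.

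On the kidney arrays the 2 transcripts varied by very different amounts. Gm853 spanned 1.84 on the log2 scale, or 3.58-fold, and array 3 lay 1.81 below the mean of arrays 1 and 2, or 3.51-fold lower. Arrays 1 and 2 differed by 0.06 although they came from different slides, while arrays 2 and 3, which shared a slide, differed by 1.78. The scanner software gave each of these spots an error of 10.0% of its signal, about 0.14 on the log2 scale, and the gap between arrays 2 and 3 was 8.73 times the combined error of the 2 spots. This error covers the reading of a spot and none of the steps before it, so it does not give the spread expected between samples. AI314278 spanned 0.10, and its gap between the same arrays was 0.48 times the combined error. With 1 array for each kidney sample, a difference between the samples cannot be told apart from one in their preparation, and in whole tissue fewer cells of a type cannot be told apart from less RNA per cell.

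**Figure D2:**
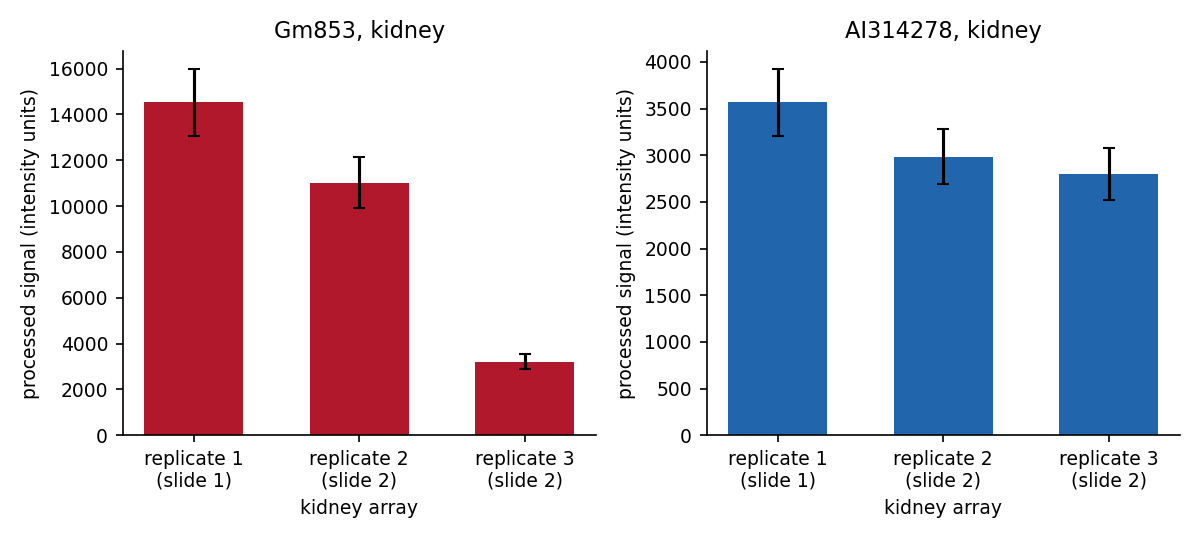
Processed signal (intensity units, axis from 0) of Gm853 (left) and AI314278 (right) on the 3 kidney arrays, with the slide of each array. Error bars are the spot error given by the scanner software. Gm853 read 14525 and 11019 on arrays 1 and 2 but 3217 on array 3, while the AI314278 readings lay between 2800 and 3566.

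Over all probes, array 3 lay near the other kidney arrays. Its 75th percentile was 77.9 intensity units against 77.6 on array 2 and 98.3 on array 1, and 26010 probes were well above background on it against 25978 and 27930. Over the 24044 probes well above background on all 3 kidney arrays, the median difference of array 3 from the mean of the other two was -0.05. Array 3 was at least 2-fold below both others for 226 of these probes (0.94%) and at least 2-fold above both for 297 (1.24%). The same counts were 196 and 266 for array 1 and 99 and 54 for array 2. A range as large as that of Gm853 was seen in 226 of the 24044 probes (0.94%), counted in either direction and on any of the 3 arrays. Among the 3278 of them with a mean kidney level of at least 5, a limit chosen after the values were seen, it was seen in 12. A range as large as that of AI314278 was seen in 96.7%.

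Of the 102 listed kidney lncRNAs, all were well above background on the 3 kidney arrays, 57 on no array of another tissue, 68 on no cell line array and 43 on no other array of any kind. Gm853 and AI314278 had the first and second highest lower bound over the nearest other tissue, ahead of AK136601 at 79.1-fold and of the Tmigd1 lncRNA at 63.2-fold. A brighter kidney signal allows a higher bound, so this order also follows signal strength. By range over the kidney arrays, Gm853 was second of 102 and AI314278 ranked 99. The median range over the list was 0.70, against 0.48 over all 24044 probes.

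**Figure D3:**
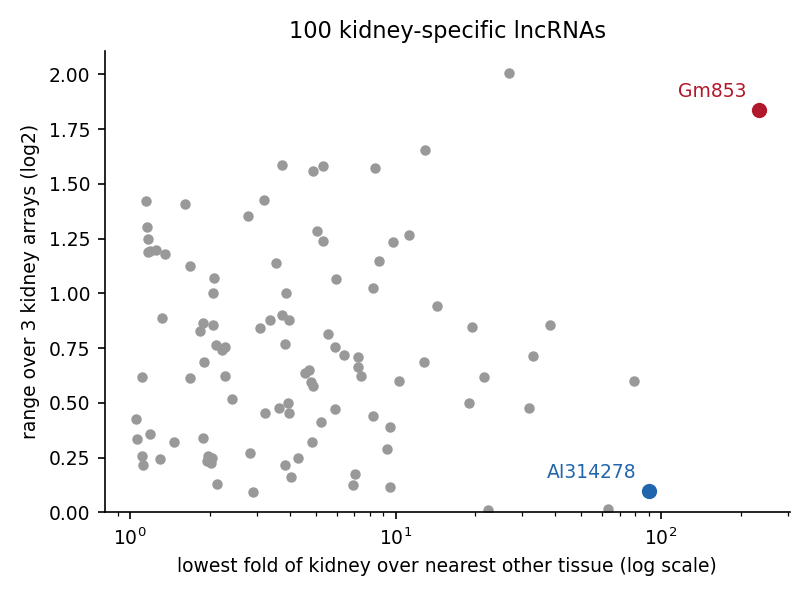
Lowest fold of kidney over the nearest other tissue (log axis) against the range over the 3 kidney arrays (log2) for 100 of the 102 listed kidney lncRNAs, 1 point each; 2 with a bound under 1 are left out. Gm853 lies at 233-fold with a range of 1.84 and AI314278 at 90.2-fold with a range of 0.10.

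Array 3 was below both other kidney arrays for 47 of the 102 listed lncRNAs (46.1%), against 39% of all 24044 probes. It was above both for 34 (33.3%), against 27.8%. A drop of at least 2-fold below both was seen for 9 (8.82%, against 0.94%) and a rise of at least 2-fold for 4 (3.92%, against 1.24%), with the 2-fold limit chosen after the values were seen. With normexp background correction these were 5 of 102 (against 0.47%) and 1 of 102 (against 0.387%). The listed transcripts share 3 RNA samples, so they are not independent.

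The 5 listed lncRNAs with the lowest array 3 relative to the mean of arrays 1 and 2 were Gm15563 (-1.93 on the log2 scale), Gm853 (-1.81), a lncRNA of Lrrc31 (-1.57), a lncRNA of Ptpn22 (-1.54) and AK082456 (-1.31). Ptpn22 encodes a phosphatase of immune cells. Gm15563 stood at 4.02, 4.18 and 2.17 on the 3 arrays, so that array 3 was low by about as much as for Gm853. The 5 highest were AK050164 (1.39), Gm11466 (1.24), AK148509 (1.16), 0610040F04Rik (1.09) and the lncRNA of Slc5a12 (1.09), named after a lactate transporter of the proximal tubule. AI314278 stood at -0.06, near the median of the list (-0.10).

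**Figure D4:**
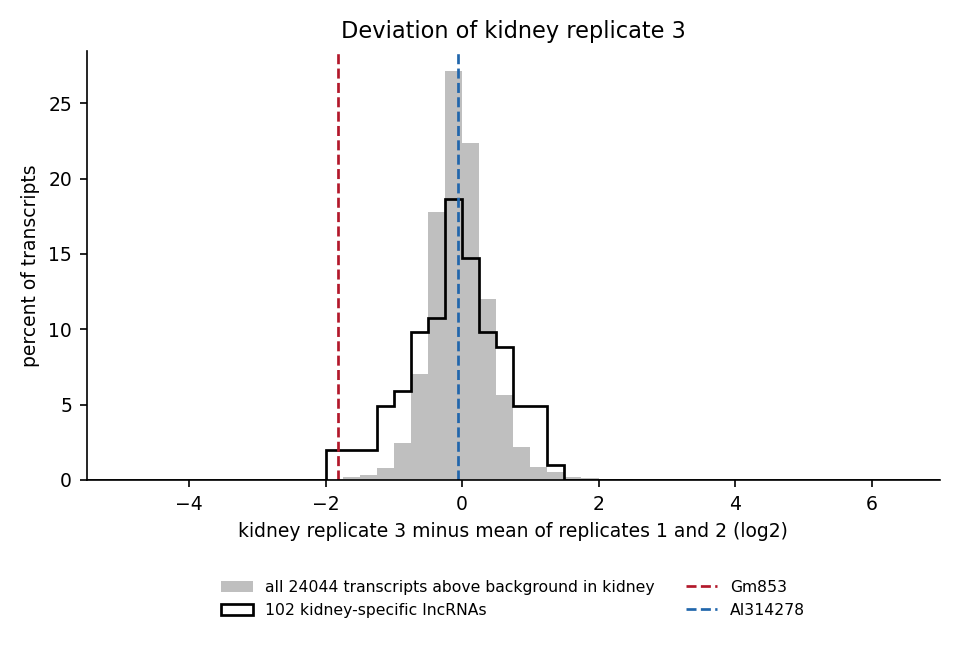
Difference of kidney array 3 from the mean of arrays 1 and 2 (log2) over all 24044 transcripts above background in kidney (grey, percent of transcripts) and over the 102 listed kidney lncRNAs (black outline). Gm853 (red dashed line) lies at -1.81 in the lower tail and AI314278 (blue dashed line) at -0.06 near the centre.

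Kidney cell markers were read on the same arrays where the study's lists name a probe. Of 56 genes in 10 lists, 8 were identified, 6 of them only as listed kidney lncRNAs named after their gene. All 11 proximal tubule genes were searched and 4 found. The lncRNA of Treh, the brush border trehalase, stood at 3.67, 4.52 and 3.71 on the 3 kidney arrays. That of Tmigd1, an adhesion protein of tubule cells, stood at 4.69, 4.70 and 4.69. That of Cyp4b1, a cytochrome P450 that androgens raise in mouse kidney, stood at 1.08, 0.55 and 0.31. That of Slc5a12 stood at 1.41, 1.52 and 2.55, highest on array 3. The sum of the 4 on the linear scale was 43.3, 53.3 and 46.0 times the 75th percentile on arrays 1, 2 and 3, against 0.0506 to 0.867 on the other 21 arrays. The brighter Tmigd1 and Treh probes carry most of that sum. All 4 are on the kidney list, so their height over the other tissues was fixed by that choice. The Cyp4b1 probe was also well above background on 2 heart, 3 GC-1 and 3 GC-2 arrays. The Tmigd1 probe was so on 3 F9 arrays and on 1 array each of brain, GC-1 and GC-2. Array 3 was below both other kidney arrays for 2 of the 4 transcripts, Cyp4b1 and Tmigd1, and above both for 1, Slc5a12. Tmigd1 spanned only 0.01 over the 3 kidney arrays, so its order there carries no weight.

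Of the distal tubule genes 1 of 5 was found, the lncRNA of Calb1, a calcium-binding protein, at 1.01, 0.98 and 0.13. Of the collecting duct genes 1 of 4 was found, the lncRNA of the water channel Aqp3, at 0.26, -0.42 and -0.59. Both were lowest on array 3, by 0.86 and 0.51 below the mean of arrays 1 and 2. Star, of steroid-making cells and the only adrenal gene found (1 of 5), and the transcript of Apoa1, a liver apolipoprotein (1 of 3 liver genes), were well above background on no kidney array. Only the Star probe is listed as reading an mRNA. The Apoa1 probe is named by the transcript ENSMUST00000132155, and whether it reads the Apoa1 mRNA was not examined. No podocyte, fat or red blood cell gene and none of the 12 genes of the polyamine and ornithine decarboxylase family was identified, and of 10 androgen-responsive kidney genes only Cyp4b1 was. The part of tubule composition or of androgen response in the low Gm853 reading was not tested.

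A limma fit of the 15 tissue arrays over all probes was applied to the 8 list genes and to a listed transcript of Tinagl1. Tinagl1 is the only neighbouring gene of either locus with a named probe. It called 49.8% of all probes for kidney against brain, 24.7% against heart, 61.1% against liver and 80.7% against testis at an adjusted p of 0.05 or less. Kidney arrays 2 and 3 were on slide 2, but heart arrays 2 and 3 were on slide 3. With the slides as a block, kidney against heart gave 9867 calls of 60804 probes, against 15010 without it. Calls against brain, liver and testis rose with that block, to 32773, 38217 and 49673. Of 36 comparisons, 27 had at least 1 of the 2 tissues well above background, and all 27 passed. Of these, 24 were higher in kidney, and all 24 belong to the 6 listed kidney lncRNAs. The other 3 were lower in kidney: Star against testis, Apoa1 against liver and the Tinagl1 transcript against brain. Since each of these probes is named only through a list of transcripts chosen by tissue on these arrays, the calls are not independent evidence. In the remaining 9 comparisons the probe was well above background in neither tissue. Among them, Apoa1 against brain and against testis and Tinagl1 against liver and against testis also passed. Those calls rest on readings that measure no clear level. The Tinagl1 transcript uc008uyy.1 stood at 2.02 ± 0.43 (SD, n = 3) in brain and was well above background on no array of the other 7 groups, kidney included. Whether this probe reads the protein-coding Tinagl1 mRNA was not examined, so the values are of the listed transcript only.

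The named transcripts most like each member over the 24 arrays were sought by Pearson r of the log2 level among probes well above background in kidney. For Gm853 they were Gm15563 (r = 0.988), Gm12678 (0.987), AK002255 (0.982), AI314278 (0.981) and the lncRNA of Treh (0.979). For AI314278 they were AK143795 (0.994), Gm12678 (0.993), AK002255 (0.992), the lncRNA of Treh (0.989) and that of Fxyd2 (0.989), a gene for a subunit that modulates the sodium pump. All are listed kidney lncRNAs and none was well above background on any of the other 21 arrays. Only 3456 of the 60804 probes have a name here, all from the study's lists. Among named and unnamed probes together, these transcripts ranked 4 to 23 for Gm853 and 10 to 21 for AI314278, so unnamed probes were closer to both. These r values across 24 arrays mainly reflect 3 high against 21 undetected readings, and the undetected readings share the scaling of each array. Within kidney the likeness was not uniform: of the 5 most like Gm853, only Gm15563 was at least 2-fold lower on array 3 than on both others. AK002255, which is in both sets, was highest on array 3, by 0.47 above the mean of arrays 1 and 2. AK143795 and Fxyd2, of the AI314278 set only, were also highest there, by 0.73 and 0.78.

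**Figure D5:**
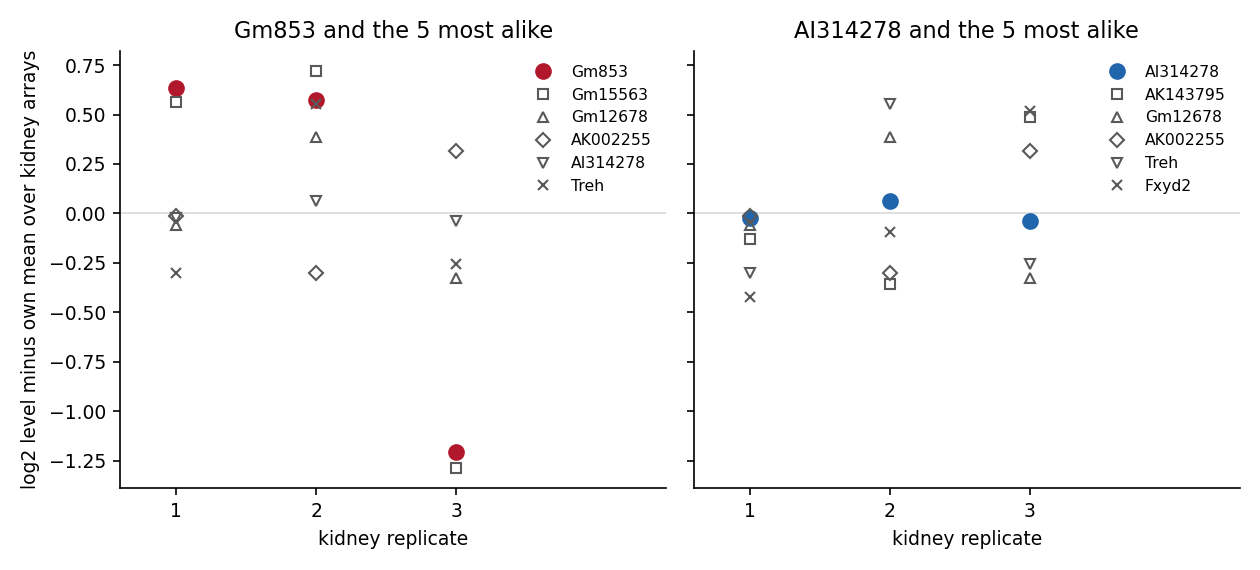
Log2 level on each kidney array minus the transcript's own mean over the 3, for Gm853 (left) and AI314278 (right) and the 5 named transcripts with the highest r over 24 arrays. On array 3, Gm853 and Gm15563 lie far below the others, and AI314278 stays near 0 on all 3 arrays.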

How the data were processed

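RNA of 24 samples was labelled with Cy3 and hybridized to 1-colour arrays on 3 slides. The authors deposited a Feature Extraction 11.5.1.1 file per array with the intensity of 62243 spots, background-subtracted and detrended but not scaled between arrays, and a table of the same processed intensities (largest relative difference 0.000228). The processed signals of 60804 transcript probes were put on the log2 scale minus the 75th percentile of each array (30.7 to 384 intensity units). A group was called detected where the well-above-background flag was set on all 3 of its arrays. Arrays give no counting depth, and 3 arrays per group limit the precision.

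Both transcripts, the marker lists and the comparisons were chosen with earlier results of these data known. Named are both members, 5 most alike transcripts each, list genes that could be identified, neighbouring protein-coding genes, and the 5 lowest and 5 highest listed lncRNAs on kidney array 3. limma 3.58.1 (R 4.3.3; lmFit, eBayes, Benjamini-Hochberg over all probes, adjusted p of 0.05 or less) was fitted to the 15 tissue and to the 9 cell line arrays and tested on simulated data. After its first results for the list genes had been seen, the tissue fit was set aside because these genes come from lists chosen on the same arrays; it was then restored as planned and extended from 3 of those genes to all 9, with that limit stated beside it. Alternatives were scaling over detected probes, quantile scaling, normexp (offset 50, on median signal and median local background, as the mean signal was not in the files), a filter on dim probes, replicate and slide blocks, within-slide differences and leaving out each array.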

Additional observations from a re-analysis of the deposited data

How the results depend on the processing

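Alternatives gave 196 values of 17 results, and none of the differences or lower bounds among them changed sign. Kidney was high by the choice of the transcripts and the gaps were large, so that sign could hardly turn. The ranges and counts have no direction. The other groups were not well above background. The differences below, unlike the lower bounds, are set against such readings and so give no size. Normexp correction, which lifts dim signals, shrank the differences most: kidney over the nearest tissue fell to 6.46 on the log2 scale for Gm853 and 4.99 for AI314278 (9.87 and 8.43 otherwise) and over the nearest line to 6.92 and 5.38 (11.04 and 9.52 otherwise). The lower bounds became 6.23 and 4.81 over the nearest tissue (7.87 and 6.49 otherwise) and 6.80 and 5.35 over the nearest line (8.99 and 7.62 otherwise). Scaling over detected probes gave AI314278 9.88 over the nearest line, with a bound of 7.97. Within slide 1, the Gm853 difference from the nearest line was 12.2 and the AI314278 bound was 8.12. Leaving out 1 array moved that bound between 7.36 (without F9 array 1) and 7.76. For Gm853 the bound over the nearest tissue ran from 7.55 (without kidney array 1) to 8.47 (without kidney array 3), and that over the nearest line from 8.67 to 9.59 without the same arrays.

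The Gm853 kidney range was 1.80 to 1.85 under all 3 other scalings, and 0.06 to 0.16 for AI314278 (0.157 with normexp). With normexp, 5 in place of 9 listed lncRNAs were at least 2-fold lower on kidney array 3, and 1 in place of 4 was at least 2-fold higher. Scaling over detected probes and quantile scaling each left 6 lower and 4 higher. These limits were chosen after seeing the data. Scaling moved the median of all probes: kidney minus testis was 1.47, but 0.22 after quantile scaling, and kidney minus liver was -0.93 and -0.04. The 27 list gene comparisons with 1 tissue above background kept call and sign under all 21 alternatives, which choosing genes by tissue favoured. The 36 gave 31 calls with and without the replicate block. In the cell lines 0 of 6 passed under any of 14 alternatives, the replicate block included, and the lowest adjusted p was 0.055 in limma. The dim-probe filter left neither transcript to test there. Deviations of same-numbered arrays correlated between -0.102 and 0.204 for kidney with the other tissues, so the numbers were not taken to pair those arrays. Across lines the correlations ran from 0.0651 to 0.291 and were all over 0.1 for F9 with GC-1 and for GC-1 with GC-2, where the block changed no call of either transcript.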
